A study of Mus musculus with 12 samples.

Results

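Vessel growth and oxygen sensing were followed in gastrocnemius muscle through 10 genes: the growth factors Vegfa, Vegfb, Vegfc and Pgf, the angiopoietins Angpt1 and Angpt2, the hypoxia-inducible factor subunits Hif1a and Epas1, and the apelin gene Apln with its receptor gene Aplnr. They were chosen by gene symbol, and all 10 were measured, each by 1 transcript cluster that carries this symbol alone, out of 19938 genes with such a transcript cluster. The samples were 12 male germ-free mice of the outbred stock Tsl;ICR[GF], 11 weeks old by their labels, that had been gavaged with feces of donor ICR mice and fed a high-fat diet for 1 week, and that were fasted briefly before sampling. Of these, 6 were recipients from sedentary donors (RS) and 6 were recipients from donors trained on a treadmill (RT), and no group without transplantation was analysed here. RNA of each mouse was hybridized to 1 Affymetrix Mouse Gene 1.0 ST array, and the values are log2 signals after robust multi-array averaging (RMA) by the authors. The methods describe joint housing and the same fecal material for recipients without giving which mice shared a cage, so the cage and the fecal material of a group cannot be told apart from donor training, and p-values measure the spread between these mice.

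VEGF ligands act on receptors of vascular endothelium: Vegfa through Flt1 and Kdr on blood vessels, Vegfb and Pgf through Flt1, and Vegfc mainly through Flt4 on lymphatic vessels. Angpt1, made largely by perivascular cells, activates the endothelial receptor Tek and stabilizes vessels, whereas Angpt2, released by endothelial cells, can counter it and makes vessels responsive to growth signals. Hif1a and Epas1 encode the oxygen-regulated subunits of the hypoxia-inducible factors, whose protein is marked for degradation by prolyl hydroxylases and Vhl when oxygen is ample, so that mRNA is only one layer of their control. Apelin is a secreted peptide of endothelial cells and other tissues, and its receptor Aplnr is found on endothelium. In skeletal muscle, Vegfa is made by the fibers themselves and maintains the capillary bed.

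Of the 12 arrays, 2 stood apart. The SD of the log2 signals of an array, called its spread here, was 1.97 in RS-4 and 1.99 in RS-6, against 2.06 to 2.15 in the other mice, and both lay at 43.0 and 43.4 on the first principal component, against −30.8 to 21.2 in the others. On the same component RS-1, at −4.74, was the RS mouse nearest to the RT mice. Values without these mice therefore stand beside the results. Skeletal muscle markers were among the brightest, with the 10 muscle fiber genes, among them Acta1 and Ckm, at percentile 99.6 or higher of all transcript clusters by mean signal (rounded); these markers do not tell gastrocnemius from other muscles. The array values carry no detection call, so how far a dim gene stood above background is not known. By mean signal, Vegfc lay at percentile 49.1, Angpt2 at 52.6 and Apln at 55.8 of all transcript clusters, and Vegfa, Epas1 and Vegfb at 96.8, 95.4 and 91.6.

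Aplnr, Angpt2, Vegfc and Hif1a were higher in RT than in RS, Vegfa was lower, and Vegfb, Pgf, Angpt1, Epas1 and Apln did not pass the test. The changes were small, between a 1.39-fold rise of Aplnr and a 1.29-fold fall of Vegfa. A call required, in the limma fit, both p under 0.05 before adjustment and under 0.1 after Benjamini-Hochberg adjustment over all transcript clusters. By this rule 5 of the 10 genes and 24.9% of all transcript clusters were called, the latter 11.9% higher and 13.0% lower, so a call by itself does not set a gene apart. The split over all transcript clusters, 3445 higher and 3764 lower, became 5883 and 2414 with arrays centered on their median, where 5 of the 10 were higher and 0 lower. The 10 genes had a median log2 change of 0.20, against −0.01 over all transcript clusters, with 8 positive and 2 negative values. In 0 of the 10 did the RS and RT values lie fully apart, which 5.79% of all transcript clusters did. Without RS-4 and RS-6 the median of the 10 was 0.10 and 0 of them were called, where 11.9% of all transcript clusters were (5.70% higher and 6.19% lower), and Aplnr, Angpt2 and Vegfc were the 3 genes with an unadjusted p under 0.05. A fit with the array spread as covariate also left 0 called, against 5.60% of all transcript clusters (2.53% higher and 3.07% lower), with Aplnr and Angpt2 at an unadjusted p under 0.05. Without RS-1, 5 were higher and 1 lower, Epas1 being the gene added. Calls over all transcript clusters rose as well in that fit, to 4573 higher and 4806 lower.

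**Figure D1:**
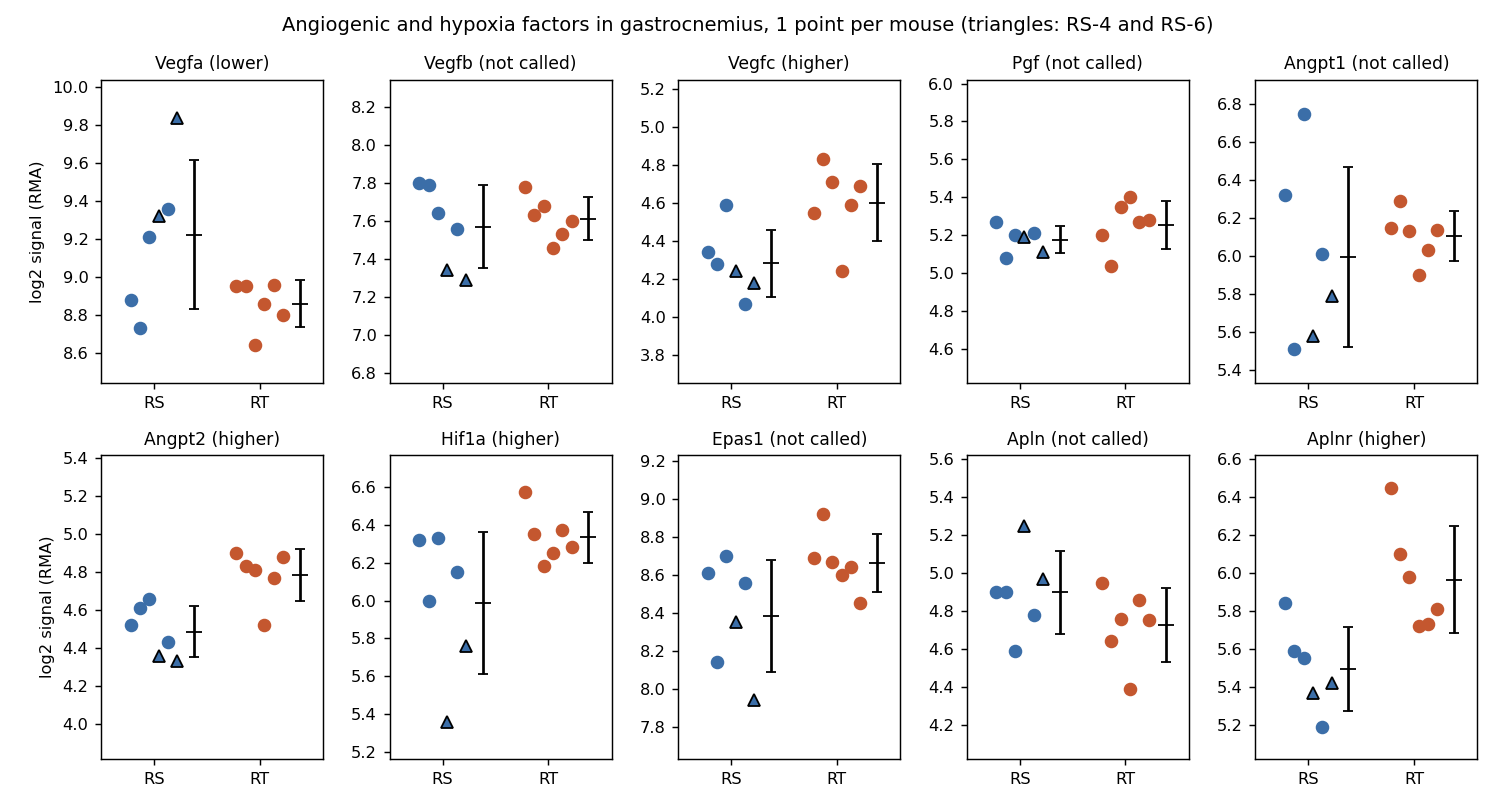
Log2 signal (y axis) of each of the 10 genes in the RS and RT mice (x axis), 1 point per mouse, with RS-4 and RS-6 as triangles and the mean ± SD (n = 6) as a bar beside each group; all panels span the same range of 1.6 log2 units. The RT mice of Angpt2 sit between 4.52 and 4.90 and the RS mice between 4.33 and 4.66, while for Vegfa 4 RS mice lie above all RT mice.

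Vegfa (transcript cluster 10451198), the main growth factor of capillaries, had a log2 signal in RS of 8.73 at the lowest, 9.27 at the median and 9.84 at the highest, and in RT of 8.64, 8.91 and 8.96. Its values were more widely spread in RS, with RS-3, RS-4, RS-5 and RS-6 above every RT mouse and RS-1 and RS-2 among them. The mean was 9.22 ± 0.39 in RS and 8.86 ± 0.13 in RT (SD, n = 6 each), so that Vegfa fell by 0.36 on the log2 scale (standard error 0.14, 95% interval −0.67 to −0.06, adjusted p = 0.0943 from limma). The exact permutation test over all 924 splits of the mice gave a two-sided p of 0.0433, where 0.00433 is the smallest that these values allow. Its highest value was that of RS-6, and the change was −0.24 without it and −0.18 with RS-4 left out as well (adjusted p = 0.359). The call of Vegfa held in 2 of 12 fits that left out 1 mouse, those without RS-1 and without RS-2. Its probes are summarized over the gene, so the splice forms of Vegfa were not separated.

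Vegfc (transcript cluster 10571788), the lymphatic member of the family, rose. Its log2 signal was 4.07 at the lowest, 4.26 at the median and 4.59 at the highest in RS, and 4.24, 4.64 and 4.83 in RT. The groups overlapped, with 3 RT mice above every RS mouse and RT-1, RT-4 and RT-5 within the RS range. The rise was 0.32 (standard error 0.11, 95% interval 0.09 to 0.54, adjusted p = 0.0515 from limma; exact permutation p = 0.0303). It was 0.28 (adjusted p = 0.168) without RS-4 and RS-6, and the call ended without RS-5, RT-2 or RT-6. Vegfb (transcript cluster 10465559), which is linked to fatty acid handling by endothelium, spanned 7.29 to 7.80 in RS and 7.46 to 7.78 in RT, so that the RT mice lay within the RS range. Its mean was 7.57 ± 0.22 in RS and 7.61 ± 0.11 in RT (SD, n = 6 each), a log2 difference of 0.04 with a 95% interval of −0.17 to 0.25. The sign of the Vegfb difference turned without RS-4 or RS-6. Pgf (transcript cluster 10401607), the placental growth factor, spanned 5.08 to 5.27 in RS and 5.04 to 5.40 in RT. Pgf gave the narrowest interval of the family, −0.08 to 0.24 around a difference of 0.08, with 5.18 ± 0.07 in RS and 5.26 ± 0.13 in RT (SD, n = 6 each). Vegfd, a further lymphatic ligand that was not among the 10 genes, had a difference of 0.03 (standard error 0.10).

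Receptor genes were called in 1 direction. Of 7 receptor genes of the VEGF and angiopoietin families, 4 were called higher and 0 lower, while 3 did not pass, with a median log2 change of 0.25, where 11.9% of all transcript clusters were called higher. Kdr, the main signaling receptor of Vegfa, averaged 6.55 ± 0.43 in RS and 7.09 ± 0.22 in RT (log2 signal, SD, n = 6 each), so that it rose by 0.54 (standard error 0.16, adjusted p = 0.0366) while its ligand gene was lower. Without RS-4 and RS-6 neither was called, with Kdr at 0.37 (adjusted p = 0.184 from limma) and Vegfa at −0.18 (adjusted p = 0.359). Flt4, the receptor of Vegfc, rose by 0.28 (adjusted p = 0.0404) along with Vegfc, and the coreceptor Nrp2 rose by 0.25 (adjusted p = 0.0940). Flt1, the receptor shared by Vegfa, Vegfb and Pgf, and the coreceptor Nrp1 had differences of 0.21 and 0.17 that did not pass, and the sign of Nrp1 turned without RS-4 and RS-6. In that setting the median of the list was 0.28 and Tek alone was called, where 11.9% of all transcript clusters were. With the spread covariate 0 of the 7 were called by limma, where 5.60% of all transcript clusters were.

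Angpt2 (transcript cluster 10577315) was one of the most stable changes among the 10 genes. Its log2 signal in RS was 4.33 at the lowest, 4.48 at the median and 4.66 at the highest, and in RT 4.52, 4.82 and 4.90. All RT mice but RT-4 lay above every RS mouse. The rise was 0.30 (standard error 0.09, 95% interval 0.11 to 0.49, adjusted p = 0.0320 from limma; exact permutation p = 0.00866), or 1.23-fold. It was 0.23 (adjusted p = 0.135) without RS-4 and RS-6 and 0.20 with the array spread in the fit (adjusted p = 0.270), and it was called in the other 22 of 24 alternatives. Angpt1 (transcript cluster 10428376), by contrast, did not pass, and its RS mice were the most scattered of all 10 genes. They ranged from 5.51 in RS-2 to 6.75 in RS-3, with both the lowest and the highest value of all 12 mice in RS, against 5.90 to 6.29 in RT. The difference was 0.11 with a 95% interval of −0.24 to 0.47, and its sign turned without RS-4 and RS-6, where it was −0.04. Tek, the receptor that both angiopoietins bind, rose from 6.02 ± 0.22 to 6.54 ± 0.23 (SD, n = 6 each), a change of 0.52 (standard error 0.12, adjusted p = 0.0105) without overlap between the groups. Tie1, the related orphan receptor, had a difference of 0.16 that did not pass.

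Within each array, Angpt2 minus Angpt1 was compared between the groups, since a shift common to both genes cancels in it. This was 1 of 3 such pairs, tested by an exact two-sided permutation test, adjusted over the 3, with 0.05 as the threshold of the adjusted p. The difference was −1.51 ± 0.42 in RS and −1.32 ± 0.08 in RT (SD, n = 6 each), a shift of 0.19 that did not exceed the spread (exact permutation p = 0.335, adjusted 0.503). The shift depended on the normalization and on RS-2: it was 0.35 with cyclic loess (exact permutation p = 0.0455, adjusted 0.0682), 0.33 with further quantile normalization (exact permutation p = 0.0519, adjusted 0.0779) and 0.31 without RS-2 (exact permutation p = 0.0476, adjusted 0.0714), and 0.07 without RS-3. An unequal change of the angiopoietins was not shown at this threshold.

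Among the 10 genes, the apelin receptor gene had the largest change over the 12 mice. However, the change of Vegfa was larger in size than that of Aplnr with cyclic loess (−0.49 against 0.40). The same held with further quantile normalization (−0.44 against 0.42) and without RT-1 (−0.38 against 0.37). In these settings Vegfa was not called (adjusted p = 0.103, 0.124 and 0.122 from limma), whereas Aplnr was. With cyclic loess the change of Vegfc was also slightly larger than that of Aplnr (0.403 against 0.402). Aplnr (transcript cluster 10473444) had a log2 signal in RS of 5.19 at the lowest, 5.49 at the median and 5.84 at the highest, and in RT of 5.72, 5.90 and 6.45. RT-1 and RT-2 were the highest of all mice, and every RS mouse but RS-1 lay below every RT mouse. The mean was 5.49 ± 0.22 in RS and 5.97 ± 0.28 in RT (SD, n = 6 each), which made the change 0.47 (standard error 0.13, 95% interval 0.20 to 0.74, adjusted p = 0.0243 from limma; exact permutation p = 0.00866), or 1.39-fold. The call held in each of the 12 fits that left out 1 mouse. Without RS-4 and RS-6 the rise was 0.42 (adjusted p = 0.104), and with the array spread in the fit it was 0.35 (adjusted p = 0.231). The gene of its ligand, Apln (transcript cluster 10604375), had a difference of opposite sign, −0.17 with a 95% interval of −0.41 to 0.06, that did not pass. Apln was 4.59 to 5.25 in RS, highest in RS-4, and 4.39 to 4.95 in RT. Apela, the gene of the other known ligand of the receptor, was among the dimmest genes listed and had a difference of 0.15 (standard error 0.08) that did not pass. The difference Aplnr minus Apln within an array was 0.60 ± 0.33 in RS and 1.24 ± 0.24 in RT (SD, n = 6 each), a shift of 0.65 (exact permutation p = 0.00649, adjusted 0.0195 over 3 pairs), with 5 RT mice above every RS mouse. Without RS-4 and RS-6 the shift was 0.49 (exact permutation p = 0.0190, adjusted 0.0571), just outside the threshold of the pairs.

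Hif1a (transcript cluster 10396421) was called at the very edge of the threshold. Its log2 signal in RS was 5.36 at the lowest, 6.08 at the median and 6.33 at the highest, and in RT 6.18, 6.32 and 6.57. The 2 lowest mice were RS-4 at 5.36 and RS-6 at 5.76, while RS-1 and RS-3 lay among the RT mice. The rise was 0.35 (standard error 0.14, 95% interval 0.05 to 0.64, adjusted p = 0.0999 from limma; exact permutation p = 0.0498). It was 0.22 without RS-4 and 0.13 when RS-6 was left out too (adjusted p = 0.416), and of 12 fits without 1 mouse the call held in those without RS-1 or RS-3. Epas1 (transcript cluster 10447317), a subunit prominent in endothelium, spanned 7.94 to 8.70 in RS and 8.45 to 8.92 in RT. Its mean was 8.38 ± 0.30 in RS and 8.66 ± 0.15 in RT (SD, n = 6 each). Its difference of 0.28 (standard error 0.12, adjusted p = 0.128) did not pass, with the lowest value in RS-6 and 1 RT mouse above every RS mouse. The difference Epas1 minus Hif1a within an array shifted by −0.07 (exact permutation p = 0.719, adjusted 0.719), so no unequal change of the subunits was shown.

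The partners and regulators of these subunits were mostly not called. Of 9 measured, 1 was called higher and 0 lower, while 8 did not pass, which is 11.1% against the background of 24.9%, with a median log2 change of −0.02. The gene that passed was Vhl, the recognition subunit of the ubiquitin ligase for hydroxylated HIF subunits. Vhl rose from 4.37 ± 0.07 to 4.79 ± 0.22 (SD, n = 6 each), a change of 0.42 (standard error 0.10, adjusted p = 0.0111 from limma) without overlap, and it was also called at 0.41 (adjusted p = 0.0427) without RS-4 and RS-6 and at 0.40 (adjusted p = 0.0801) with the spread covariate. Arnt, the common partner of both subunits, and the prolyl hydroxylase gene Egln1 had differences of 0.19 and 0.17 that did not pass. Egln3, a hydroxylase gene that HIF itself induces, ranged from 5.56 to 7.37 in RS and from 5.83 to 6.77 in RT.

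The listed target genes of the hypoxia-inducible factors did not move together. The factors followed here, Vegfa included, were not counted in this list. Of 18 measured, 4 were called higher and 1 lower, while 13 did not pass, so that 27.8% were called against 24.9% of all transcript clusters, with a median log2 change of 0.05. Ndrg1, a stress-induced gene, rose by 0.66 with a standard error of 0.14 (adjusted p = 0.00649) and Slc2a1, the glucose transporter GLUT1, by 0.38 with a standard error of 0.08 (adjusted p = 0.00880), both without overlap and, alone in this list, both called without RS-4 and RS-6. Adm, which encodes the vasodilator adrenomedullin, rose by 0.47 and the mitophagy receptor gene Bnip3l by 0.37. P4ha2, a collagen prolyl hydroxylase gene, fell by 0.34. The glycolytic targets Ldha, Pgk1 and Hk2 had differences of 0.24, −0.03 and −0.08 that did not pass.

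Proximal promoters were searched for the core of the HIF binding motif, ACGTG or GCGTG, on both strands. RefSeq promoter windows of build GRCm38.p6 matched 6 of the 10 genes by gene identifier, and the 250 bases before the start were used. Angpt1, Angpt2, Epas1 and Aplnr had no window, so the called genes Angpt2 and Aplnr were not searched. Hif1a at chr12:73907617-73907866 on the plus strand, Vegfa at chr17:46032378-46032627 on the minus strand and Vegfc at chr8:54077282-54077531 on the plus strand are shown, since they are the called genes with a window and Hif1a and Vegfa changed in opposite directions. Capitals mark the motif and the rest is in lower case.
Hif1a: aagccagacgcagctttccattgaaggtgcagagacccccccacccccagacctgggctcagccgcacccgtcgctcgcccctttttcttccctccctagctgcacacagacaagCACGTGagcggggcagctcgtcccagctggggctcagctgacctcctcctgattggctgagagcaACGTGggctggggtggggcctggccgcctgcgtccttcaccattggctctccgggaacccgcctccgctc
Vegfa: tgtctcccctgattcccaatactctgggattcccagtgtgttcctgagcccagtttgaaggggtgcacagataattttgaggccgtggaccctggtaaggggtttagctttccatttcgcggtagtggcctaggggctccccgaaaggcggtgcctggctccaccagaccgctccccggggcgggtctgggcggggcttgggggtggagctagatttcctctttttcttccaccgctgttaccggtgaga
Vegfc: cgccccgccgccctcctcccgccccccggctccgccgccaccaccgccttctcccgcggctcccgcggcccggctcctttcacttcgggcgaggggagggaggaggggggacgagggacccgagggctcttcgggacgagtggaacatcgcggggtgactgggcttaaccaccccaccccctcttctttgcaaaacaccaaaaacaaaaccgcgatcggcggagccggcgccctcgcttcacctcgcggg
The Hif1a window, the only window of this gene, precedes a start inside the gene, which begins at position 73901324. Sequence before that position was not searched. The window held 3 matches to ACGTG. Of these, 2 overlap, since the run of 6 capitals reads as the motif on either strand, 135 to 130 bases before the start, and the other lies 70 to 66 bases before it. The Vegfa and Vegfc windows shown held 0 matches. Bases farther upstream of these windows were not searched, so the search cannot tell whether motifs lie there. Another annotated start of Vegfa, downstream of the one shown, had 1 match to each form in its window, which lies inside the gene. Of all 32851 promoter windows, 16.6% held ACGTG, 28.2% held GCGTG and 38.6% held either form. The Vegfb window held GCGTG alone. Pgf had 1 window with GCGTG alone and another with 0 matches, and Apln had 0 matches. The matches describe letters only and no binding was measured.

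**Figure D2:**
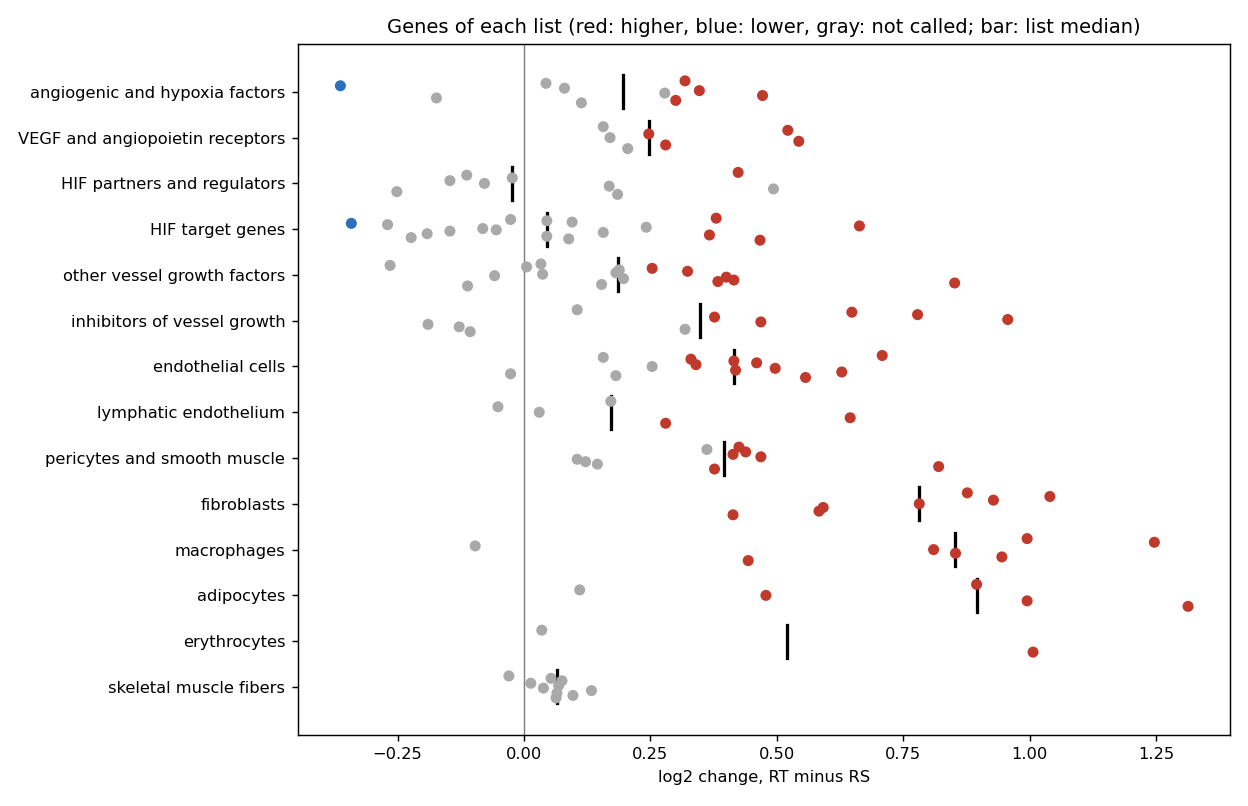
Log2 change, RT minus RS (x axis), of each gene in the 10 factors, in 5 lists of their pathways and in 8 lists of cell type markers (y axis), 1 point per gene; red points were called higher, blue ones lower and gray ones not called, and black bars are list medians. The median is 0.25 for the receptors, 0.05 for HIF targets, 0.42 for endothelial markers and 0.06 for muscle fiber markers.

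Other ligands and inhibitors of vessel growth were described in the same way. Of 16 further growth factors and ligands, 6 were called higher and 0 lower, while 10 did not pass (median log2 change 0.19), so that 37.5% were called against 24.9% of all transcript clusters. Bmp4, a morphogen of the TGF-β family, rose by 0.85 with a standard error of 0.16 (adjusted p = 0.00395), the chemokine gene Cxcl12 by 0.42, the arterial ephrin gene Efnb2 by 0.40, Bmp6 by 0.38, the hepatocyte growth factor gene Hgf by 0.32 and Pdgfa by 0.25. Hgf was dim, at percentile 18.7 of all transcript clusters by mean signal, so how far it stood above background is not known. The classical angiogenic factor gene Fgf2 had a difference of 0.18 that did not pass. The next list was named for inhibitors of vessel growth, although it counts Vash2, whose product is not an established inhibitor. Among its 10 measured genes, 5 were called higher and 0 lower, while 5 did not pass (median 0.35), or 50.0% called against the same 24.9%. Serpinf1, the gene of pigment epithelium-derived factor, rose by 0.96 (standard error 0.16, adjusted p = 0.00233), the thrombospondin gene Thbs2 by 0.78, Timp3 by 0.65, the axon guidance gene Sema3a by 0.47 and Thbs1 by 0.38. With RS-4 and RS-6 left out, 3 growth factors (Bmp4, Cxcl12 and Hgf) and 3 inhibitors (Serpinf1, Thbs2 and Timp3) were called, where 11.9% of all transcript clusters were, and with the spread covariate 3 growth factors and 2 inhibitors were called, where 5.60% of all were.

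Markers of most of the other cell types in muscle were higher in RT, whereas those of the fibers were not called. Of 13 endothelial markers, 9 were called higher and 0 lower, while 4 did not pass, which is 69.2% called against 24.9% of all transcript clusters, with a median log2 change of 0.42, above the change of 9 of the 10 factors. Their mean log2 signal was 6.07 to 6.43 in RS and 6.49 to 6.80 in RT, highest in RT-1 and RT-2, the mice with the highest Aplnr. Vwf and Emcn rose by 0.71 and 0.63. With RS-4 and RS-6 left out, 5 were called higher and the median was 0.30, where 11.9% of all transcript clusters were called, and with the spread covariate 2 were, where 5.60% of all were. Of 10 pericyte and smooth muscle markers, 6 were higher and 4 did not pass (mean log2 signal 6.30 to 6.60 in RS and 6.70 to 7.02 in RT), with Acta2 up by 0.82. All 7 fibroblast markers were higher (7.36 to 8.57 in RS, 8.58 to 8.98 in RT), 6 of 7 macrophage markers were higher (4.80 to 5.31 in RS, 5.54 to 5.93 in RT), and 4 of 5 adipocyte markers were higher (4.01 to 4.43 in RS, 4.37 to 5.81 in RT). Leaving out RS-4 and RS-6, 4 of the pericyte and smooth muscle, 5 of the fibroblast, 6 of the macrophage and 3 of the adipocyte markers were called higher. With the spread covariate these counts were 4, 2, 5 and 1. The lymphatic endothelial markers Lyve1 and Flt4 were higher, and Prox1, Pdpn and Reln did not pass, which is 40.0% called against 24.9%, with a median log2 change of 0.17. Without RS-4 and RS-6, 1 lymphatic marker was called, and with the spread covariate 1 was. Of 2 erythrocyte markers, Alas2 was higher and Slc4a1 did not pass. The 10 muscle fiber markers held 0 calls by limma (also 0 at p under 0.05 before adjustment and 0 by the test named in the methods) and mean log2 signals of 12.09 to 12.33 in RS against 12.21 to 12.33 in RT. In muscle homogenate, more cells of a type and more RNA per cell cannot be told apart, and the part of cell makeup in the changes of the 10 factors was not tested. Tie1 and Flt4 stand in both the receptor and marker lists, and Egln3 stands in both the list of HIF partners and regulators and that of HIF targets.

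**Figure D3:**
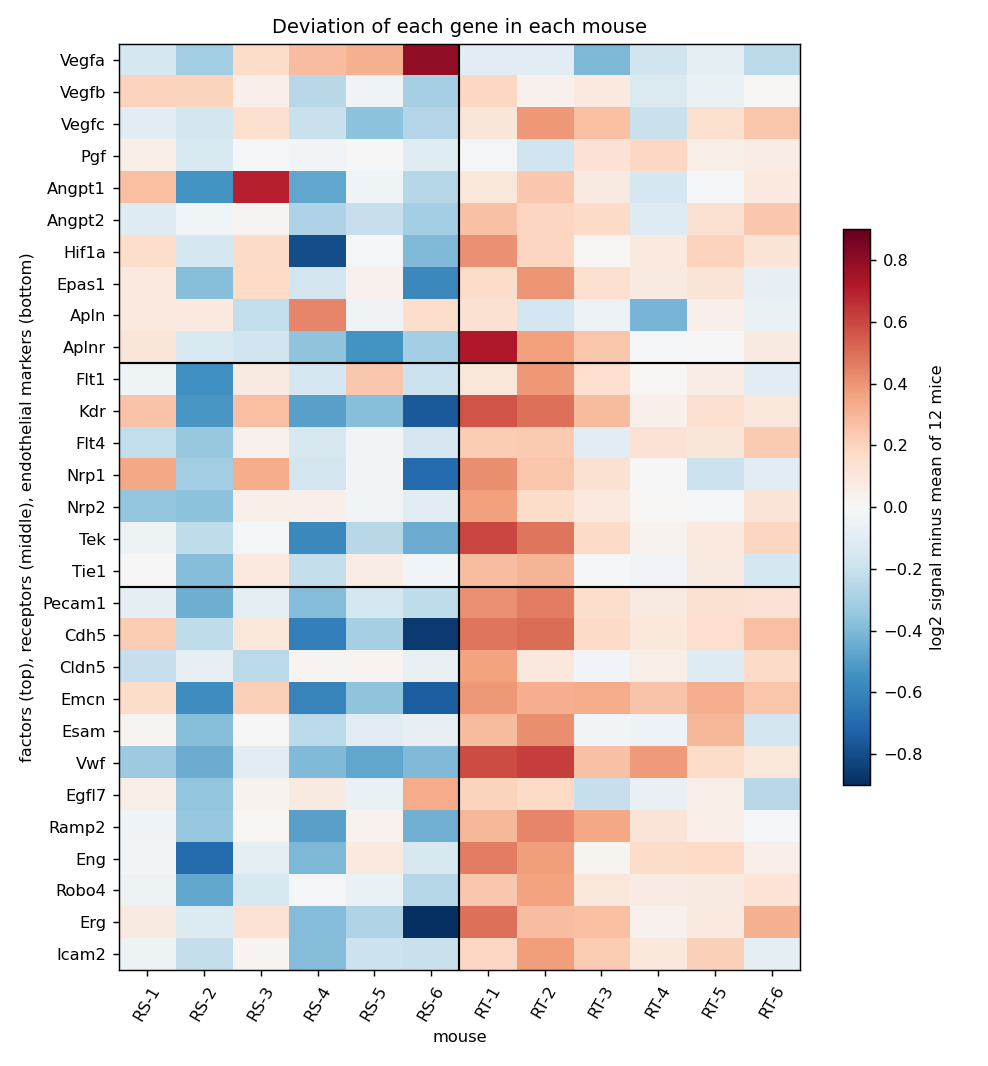
Deviation of the log2 signal from the mean of the 12 mice (color) for the 10 factors, the 7 receptors and 12 endothelial markers (y axis) in each mouse (x axis); RS mice are left of the vertical line. RT-1 and RT-2 are highest for Aplnr and for the mean of the endothelial markers, and RS-4 and RS-6 are lowest for Hif1a.

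The likeness of other genes to the called factors was measured over the 12 mice as the mean absolute difference of values scaled to unit SD. Vegfa was nearest to Pfkfb2, which encodes a regulator of glycolysis, at 0.16 SD, then to 1700025H01Rik at 0.17 and Rbm25 at 0.23. Aplnr was nearest to Elk3, an ETS-family transcription factor gene, at 0.20, then to Zfp810 at 0.24 and Rpa3 at 0.27. Angpt2 was nearest to Zmiz1, Chsy1 and Lbp at 0.26, 0.26 and 0.27, and Vegfc to Lix1l, Itga1 and Phlpp1 at 0.26, 0.29 and 0.32. Hif1a was nearest to 3830406C13Rik, Mtx2 and Asah1 at 0.21, 0.23 and 0.24. These are the nearest of 19938 genes and are given as a description.

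**Figure D4:**
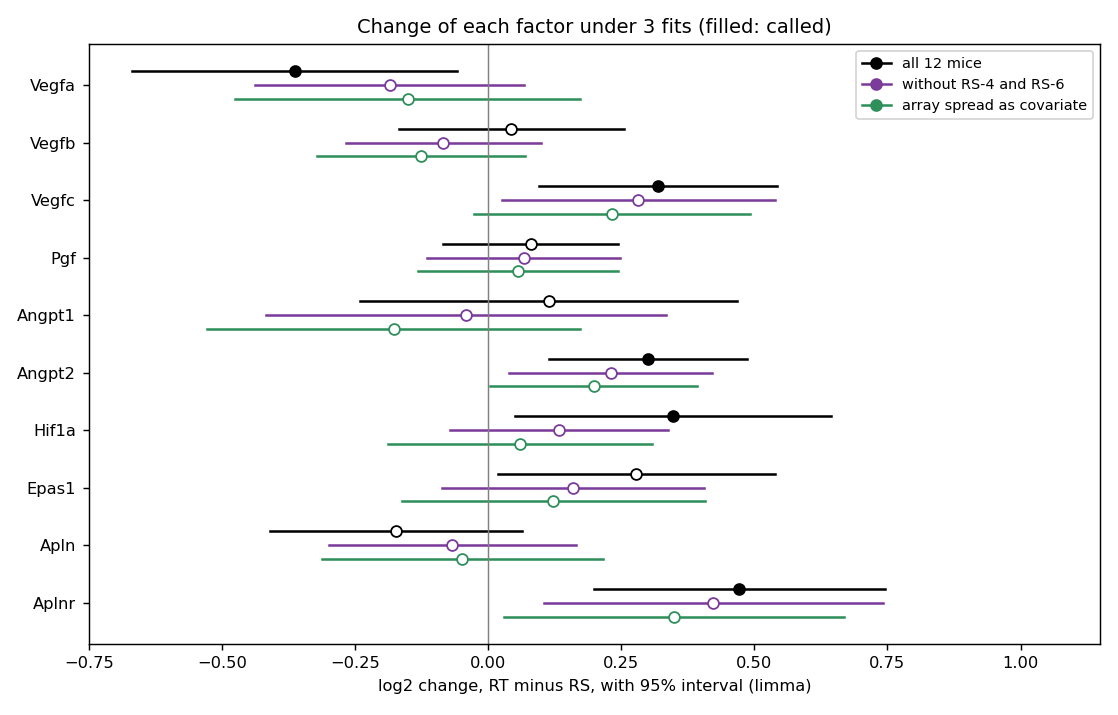
Log2 change, RT minus RS, with its 95% interval from limma (x axis) for each of the 10 genes (y axis), over all 12 mice (black), without RS-4 and RS-6 (purple) and after adding the array spread as covariate (green); filled points are called. Aplnr is 0.47, 0.42 and 0.35 under the 3 fits, and Hif1a is 0.35, 0.13 and 0.06.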

How the data were processed

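Gastrocnemius RNA of 12 mice was measured on Affymetrix Mouse Gene 1.0 ST arrays, 1 per mouse, from 250 ng of total RNA. The deposited table holds 28944 transcript clusters as log2 signals after RMA by the authors (the methods also name the SST-RMA variant). The genome build of the array annotation is not given in the sources used here. Groups were taken from the sample titles. The table held 0 columns of other samples.

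The annotation gave 1 symbol to 21789 transcript clusters, several to 1621 and none to 5534. A gene with several was represented by the brightest, and list genes with no transcript cluster of their own symbol were not analysed here. The contrast RT minus RS was fitted in limma 3.58.1 under R 4.3.3 (lmFit, eBayes), two-sided and without covariates, over all transcript clusters; adjusted p-values of single genes are from limma. The fit was tested on simulated data. Single values were also compared by exact permutation. No set test was run.

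The 10 genes, the lists and the alternatives were chosen with earlier results of these data known. Named are the 10 genes, the called genes of the pathway lists, up to 3 others per list, and the 3 genes most like each called factor; marker genes are examples picked with their values known. Alternatives were further quantile normalization, median centering, cyclic loess, the array spread as covariate, leaving out RS-4 and RS-6 together or each mouse alone, leaving out the dimmest 33.3%, the one-way ANOVA of the methods, trend and robust eBayes, array weights, a replicate block, a stricter threshold and means over transcript clusters.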

Additional observations from a re-analysis of the deposited data

Results flagged for a closer look

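Among 26 groups of 6 values (10 genes and 3 pairs, in RS and RT), 2 held a mouse whose gap to the rest exceeded the 95% critical value of Dixon's test, 0.625, which chance gives in about 1 in 20 groups. Angpt2 was 4.52 in RT-4, against 4.77 to 4.90 in the other RT mice. The difference Epas1 minus Hif1a was 2.99 in RS-4, against 2.14 to 2.41 in the other RS mice.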

How the results depend on the processing

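Over all transcript clusters, 3445 higher and 3764 lower became 5883 and 2414 with arrays centered on their median, 732 and 888 with the spread covariate, 1649 and 1791 without RS-4 and RS-6, and 2092 and 2307 at an adjusted p under 0.05. Leaving out 1 mouse gave 2360 to 4573 higher and 2564 to 4806 lower. Of the 10 factors, 4 were higher and 1 lower. This became 0 and 0 with the spread covariate and without RS-4 and RS-6, and 2 and 0 at an adjusted p under 0.05. The lower count was also 0 with median centering, further quantile normalization, cyclic loess and the one-way ANOVA of the methods. Without 1 mouse, 2 to 5 were higher and 0 to 1 lower. Aplnr and Angpt2 were each called in 22 of 24 alternatives, Vegfc in 18, Hif1a in 7, Vegfa in 6 and Epas1 in 3, and Vegfb, Pgf, Angpt1 and Apln in 0. None of the 5 called genes changed direction. Vegfb turned to −0.10 with cyclic loess, −0.065 with quantile normalization, −0.13 with the spread covariate, −0.084 without RS-4 and RS-6, −0.0027 without RS-4 and −0.013 without RS-6 (−0.013 to 0.089 without 1 mouse). Angpt1 turned to −0.0034 with array weights, −0.18 with the spread covariate and −0.041 without RS-4 and RS-6. Epas1 minus Hif1a turned to 0.026 without RS-4 and RS-6 and to 0.050 without RS-4 (−0.12 to 0.050 without 1 mouse). Aplnr minus Apln was 0.49 without RS-4 and RS-6, no longer past the threshold of the pairs (adjusted p under 0.05), and 0.55 to 0.72 without 1 mouse, and Angpt2 minus Angpt1 was 0.07 to 0.31. The cause of these turns was not tested.

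With the replicate number as a block, 4 factors were higher and 0 lower, the call of Vegfa being lost. Same-numbered mice correlated between −0.24 and 0.11 after removal of group means, and 0 RS mice and 1 RT mouse (RT-4) were closest to the mouse of their own number in the other group, so the numbers were not taken to pair the mice. The number of arrays, and signals near the middle of the array for Vegfc, Angpt2 and Apln, limit the precision.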
